A study of Mus musculus with 31 samples.

Results

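The subject is a set of 7 mature microRNA arms of the mouse hippocampus: mmu-miR-128-3p with its 5p arms mmu-miR-128-1-5p and mmu-miR-128-2-5p, mmu-miR-137-3p, and mmu-miR-138-5p with its 3p arms mmu-miR-138-1-3p and mmu-miR-138-2-3p. They were picked by name, as 7 of the 1966 rows in the deposited count tables, and every one was read in all 31 libraries. Small RNA was sequenced from right hippocampi of C57Bl/6 J animals, either without the serotonin transporter (5-HTT KO) or wild type. In KO mice the groups were KO-exercise (n = 5), KO-corticosterone (n = 2) and KO-water (n = 6), and in wild types WT-exercise (n = 5), WT-corticosterone (n = 6) and WT-water (n = 7). Exercise and corticosterone, the main stress hormone of rodents, were each given for 4 weeks, and the water groups were kept in standard housing. Age, sex, the type of exercise, the route of the hormone and the cells in which the transporter was lost are stated in no source used here. The tables count microRNAs only, which leaves no transporter transcript with which to check genotype. The labels call the libraries biological replicates.

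A microRNA hairpin is cut into a duplex, of which 1 strand, the guide, is usually kept by Argonaute and pairs through its seed with messenger RNAs, while the other strand, the passenger, is mostly lost. MiR-128-3p is a guide enriched in brain neurons that limits excitability in mice. MiR-137-3p acts in neuronal maturation and in release from presynaptic terminals, and its human gene lies in a region associated with schizophrenia. MiR-138-5p is present in dendrites and restrains the size of dendritic spines in cultured rat hippocampal neurons, in part through the depalmitoylating enzyme Lypla1.

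The mature sequences are shown because the seed sets what each arm can pair with. They are from RefSeq (GRCm38.p6), 5′ to 3′, with the seed (bases 2 to 8) in capitals.
miR-128-3p: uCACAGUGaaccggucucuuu
miR-137-3p: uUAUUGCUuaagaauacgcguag
miR-138-5p: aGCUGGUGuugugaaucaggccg
miR-128-1-5p: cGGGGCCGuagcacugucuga
miR-128-2-5p: gGGGGCCGaugcacuguaagaga
miR-138-1-3p: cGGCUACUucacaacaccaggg
miR-138-2-3p: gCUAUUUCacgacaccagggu

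The 3 guides have unrelated seeds, and among 1679 mature mouse microRNAs of the RefSeq table none shares the whole seed of miR-128-3p, miR-137-3p or miR-138-5p. The 5p arms of miR-128 share theirs with each other. MiR-27a-3p and miR-27b-3p hold the bases CACAGU 1 place further along, so their seeds overlap that of miR-128-3p. The seed of miR-216a-3p also overlaps it at a shift of 1 base. Base composition differed among the guides, with a G and C content of 34.8% in miR-137-3p, 47.6% in miR-128-3p and 56.5% in miR-138-5p.

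MiR-128-3p and miR-138-5p are each made from a pair of hairpins that give the same guide, so that the guide counts cannot be split by locus, whereas the passenger arms can. The hairpins are shown for that reason, with both annotated arms in capitals.
Mir128-1: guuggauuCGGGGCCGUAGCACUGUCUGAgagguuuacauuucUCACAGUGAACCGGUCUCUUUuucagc
Mir128-2: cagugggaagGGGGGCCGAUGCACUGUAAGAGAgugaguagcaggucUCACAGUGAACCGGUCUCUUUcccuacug
Mir138-1: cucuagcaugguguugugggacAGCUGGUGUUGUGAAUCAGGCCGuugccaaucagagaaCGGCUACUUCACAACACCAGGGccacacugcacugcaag
Mir138-2: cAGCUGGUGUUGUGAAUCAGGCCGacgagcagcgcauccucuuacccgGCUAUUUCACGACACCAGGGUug

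In GRCm38.p6, Mir128-1 lies at chr1:128202361-128202430 on the plus strand, in an intron of R3hdm1, and Mir128-2 at chr9:112118636-112118711 on the minus strand, in an intron of Arpp21, which encodes an RNA-binding phosphoprotein. Both hosts run on the strand of their hairpin in the GENCODE annotation of the same build. Mir137 lies at chr3:118433857-118433929 on the plus strand, in an exon of the noncoding transcript Gm26871. Mir138-1, at chr9:122682876-122682974, and Mir138-2, at chr8:94324311-94324381, are both on the plus strand and overlap exons of the pseudogene Gm47135 and of the long noncoding RNA C78859. The 3p arms of miR-138 match at 18 of 20 aligned bases, so a trimmed or misread 3p read could be given to the wrong locus.

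Levels are given as CPM, read counts scaled to a common library size, after TMM scaling of the 31 libraries. They were not divided by length, and the 7 arms are 21 to 23 bases long. Mmu-miR-138-5p, at a mean of 42459 CPM, ranked at place 3 of all microRNAs, and mmu-miR-128-3p, at 35933 CPM, at place 5. Mmu-miR-137-3p averaged 5312 CPM (place 37). The 3p arms of miR-138 were alike, at 289.9 CPM for miR-138-1-3p and 284.7 CPM for miR-138-2-3p (places 164 and 165). The 5p arms of miR-128 were scarce, at 23.1 CPM for miR-128-2-5p and 13.05 CPM for miR-128-1-5p, and rested on 11 to 97 reads per library. The guides rested on at least 2648 reads in every library.

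The tissue was checked by microRNA markers. Neuronal markers (6 of 6 detected) summed to 272758 to 387908 CPM, while hindbrain and spinal cord markers summed to 2.39 to 34.6 CPM. Most of the neuronal sum was miR-124-3p, at a mean of 244304 CPM, and neither list is particular to hippocampus. Total counts ran between 1011285 and 4052174 per library. The KO-water libraries did not form a single group: the deposited table that sets KO against WT under water holds 3 of the 6 KO-water libraries (replicates 3, 4 and 6), and these stood apart from the other 3 (replicates 1, 2 and 5) in much of their microRNA profile. No source used here says how the libraries of that table were chosen. The main KO-water results are therefore given for all 6 and for each set of 3.

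**Figure D1:**
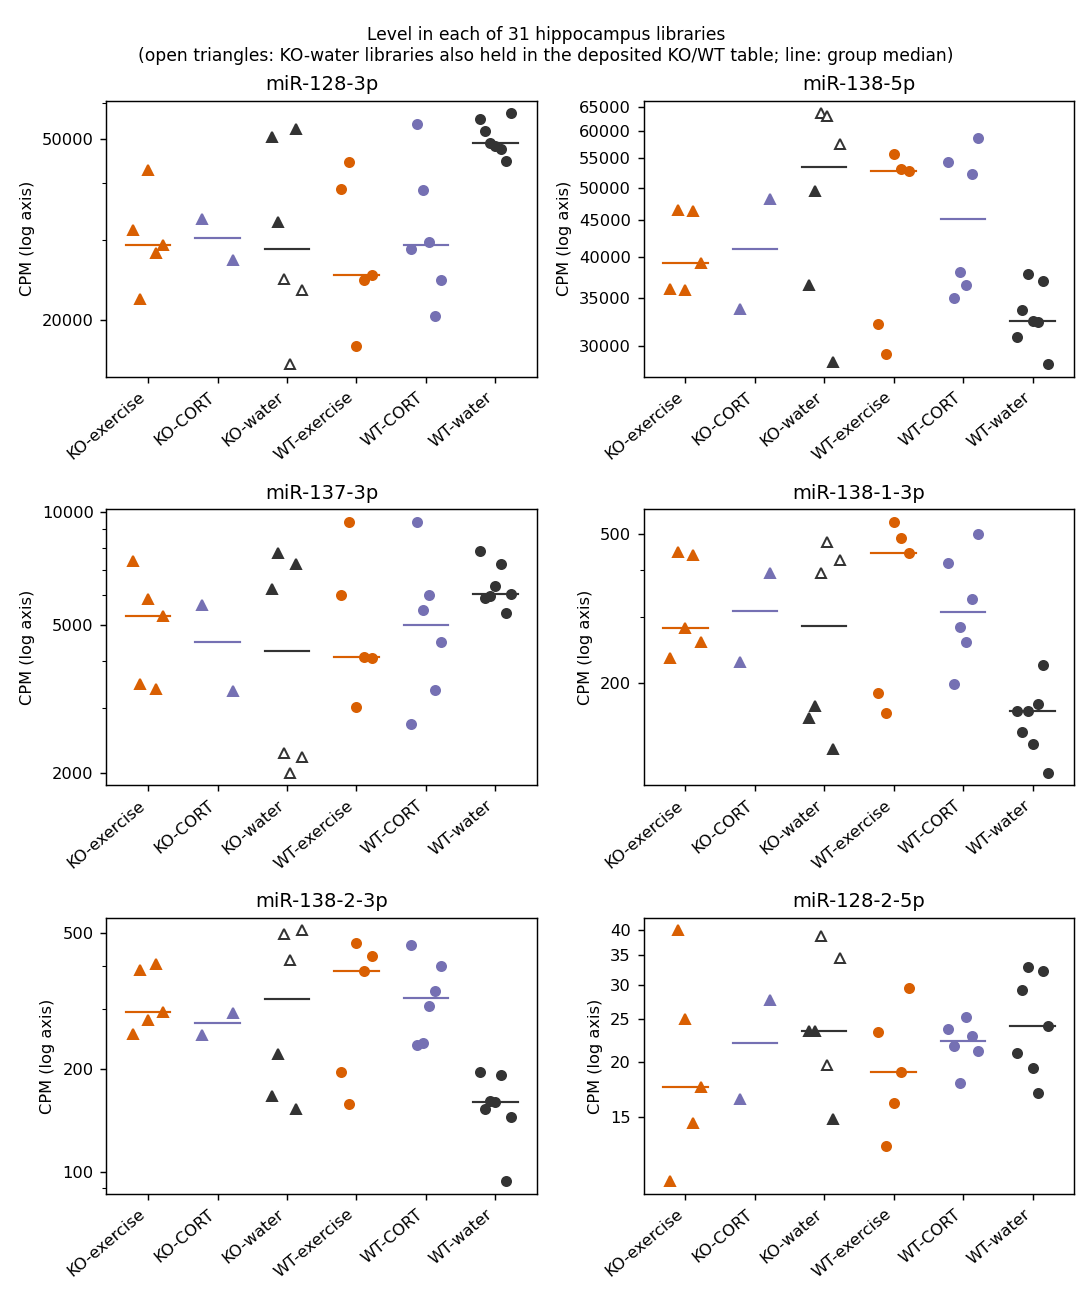
CPM (log axis) of 6 of the 7 arms in every library, by group, with 1 point per library and a line at the group median; triangles are KO, circles WT, and open triangles the 3 KO-water libraries of the deposited KO/WT table. For miR-128-3p the spread is 17480 to 44572 CPM in WT-exercise, 20364 to 53915 CPM in WT-corticosterone and 15975 to 52612 CPM in KO-water, while the WT-water libraries lie close together at 44783 to 56968 CPM.

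In the 3 guides WT-water was the tightest of the 6 labelled groups. The coefficient of variation of miR-128-3p was 37.2% in WT-exercise, 37.0% in WT-corticosterone and 45.5% in KO-water, against 8.75% in WT-water. For miR-137-3p it was 47.6%, 45.4% and 59.3% in the same groups, against 13.6% in WT-water. For miR-138-5p it was 28.7%, 22.8% and 29.2%, against 10.1% in WT-water. The KO-water values pool both sets. Within the set of the KO/WT table the coefficient was 21.8% for miR-128-3p, 6.23% for miR-137-3p and 5.46% for miR-138-5p, and within the other set it was 24.0%, 10.99% and 27.6%. Outside WT-water, 21 of 24 libraries had less miR-128-3p than every WT-water library, and none had more. By the same measure 15 of 24 had more miR-138-5p and none less, whereas miR-137-3p was below the WT-water range in 13 and above it in 2.

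Exercise in wild types was set against water, which asks how exercise bears on these arms. MiR-128-3p fell, both 3p arms of miR-138 rose, and the other 4 arms did not pass the test (edgeR quasi-likelihood, Benjamini-Hochberg adjusted p below 0.05). So 3 of 7 members were called where 32.5% of all 553 microRNAs tested were (19.9% as rises and 12.7% as falls). MiR-128-3p measured 17480, 24425, 25107, 38781 and 44572 CPM in the WT-exercise libraries, against 44783 to 56968 CPM (median 48914) in WT-water. All 5 exercised libraries lay below all 7 water libraries, although the highest stood just under the lowest water library, and the 5 values fell into a low set of 3 and a high set of 2. The groups failed to overlap for 10.3% of all microRNAs tested. The log2 fold change of miR-128-3p was -0.70 ± 0.20 (SE), with an adjusted p of 0.0183. In bulk tissue, fewer cells of a type and less microRNA per cell cannot be told apart.

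MiR-138-1-3p, a passenger arm, measured 166, 188, 444, 486 and 538 CPM in WT-exercise, against 115 to 223 CPM (median 168) in WT-water. MiR-138-2-3p measured 158, 195, 386, 427 and 465.7 CPM, against 93.9 to 195.98 CPM (median 160.2). In both arms the same 3 exercised libraries (replicates 3, 4 and 5) exceeded every water library and the remaining 2 lay inside the water range. These were the 3 libraries with the least miR-128-3p. The log2 fold changes were 1.24 ± 0.29 for miR-138-1-3p and 1.13 ± 0.27 for miR-138-2-3p, with edgeR's adjusted p at 0.00697 and 0.00745.

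The guide miR-138-5p showed the same split, at 29288, 32194, 52770, 53198 and 55838 CPM in WT-exercise against 28290 to 37829 CPM (median 32478) in WT-water. Its log2 fold change of 0.49 ± 0.19 missed the threshold in edgeR (adjusted p = 0.0566) and passed it in DESeq2 (0.0301). MiR-137-3p measured 3002, 4070, 4091, 5989 and 9400 CPM in WT-exercise, against 5360 to 7850 CPM (median 6028) in WT-water. It lay below the water range in the same 3 libraries and above it in replicate 2, and its log2 difference was -0.21 ± 0.22 (adjusted p = 0.457 by edgeR). Without that replicate miR-137-3p was called at -0.50 (adjusted p = 0.0247 by edgeR). The 5p arms of miR-128 differed by -0.37 ± 0.28 (miR-128-1-5p) and -0.24 ± 0.25 (miR-128-2-5p).

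The WT-exercise calls depended on few libraries. Without WT-exercise replicate 4 or 5, miR-128-3p lost its call (adjusted p of 0.0569 and 0.0557 by edgeR). Without WT-exercise replicate 1 or 2, miR-138-5p was called (0.0361 and 0.00711). The number called over all microRNAs moved too, up to 274 without replicate 2. With only libraries whose code starts with G, 3 exercised and 5 water, 0 of the 7 were called by edgeR, where 7 of 575 microRNAs rose and 3 fell, and miR-128-3p was at -0.49 (adjusted p = 0.318). With only those whose code starts with H, 2 exercised and 2 water, the same 3 arms were called as with all libraries, beside 111 rises and 99 falls of 554 microRNAs. What the letters stand for is stated in no source used here.

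Corticosterone in wild types was set against the same water libraries. MiR-128-3p fell and all 3 arms of miR-138 rose, 4 of 7 members called where 41.9% of 547 microRNAs were (24.9% as rises and 17.0% as falls). MiR-128-3p ranged over 20364 to 53915 CPM (median 29170) in WT-corticosterone, against 44783 to 56968 CPM in WT-water. In 5 of 6 treated libraries it was below every water library, and replicate 2, at 53915 CPM, stood inside the water range. The log2 fold change was -0.59 ± 0.19 (adjusted p = 0.0204 by edgeR).

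MiR-138-5p ranged over 35033 to 58826 CPM (median 45227) in WT-corticosterone, against 28290 to 37829 CPM in WT-water, with 4 of 6 treated libraries above every water library. Its log2 fold change was 0.52 ± 0.16 (adjusted p = 0.0151 by edgeR). MiR-138-2-3p ranged over 235 to 460 CPM (median 321) in WT-corticosterone, against 93.9 to 195.98 CPM in WT-water, and was the only member whose groups did not overlap, as happened for 13.5% of all microRNAs. It rose by 1.12 ± 0.19 on the log2 scale (adjusted p = 0.00042 by edgeR). MiR-138-1-3p ranged over 199 to 500 CPM (median 309) in WT-corticosterone, against 115 to 223 CPM in WT-water, a log2 fold change of 1.09 ± 0.22 (adjusted p = 0.00127 by edgeR).

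MiR-137-3p ranged over 2713 to 9375 CPM (median 4987) in WT-corticosterone, against 5360 to 7850 CPM in WT-water, and was not called (-0.24 ± 0.23, adjusted p = 0.402 by edgeR). Here too replicate 2 was the highest library, and without it miR-137-3p was called at -0.54 (adjusted p = 0.0214 by edgeR). Its own passenger arm miR-137-5p, which is not among the 7 and had 6 to 53 reads per library, fell by 0.999 ± 0.254 on the log2 scale (adjusted p = 0.0056 by edgeR). The 5p arms of miR-128 were not called (-0.24 ± 0.25 for miR-128-1-5p and -0.13 ± 0.19 for miR-128-2-5p). The calls of the guides were the weaker ones. In a joint fit of all 6 groups miR-128-3p was at -0.63 (adjusted p = 0.0564 by edgeR) and miR-138-5p at 0.45 (0.0763), whereas both 3p arms of miR-138 were called, with 98 rises and 73 falls over 627 microRNAs. With only code letter G, 5 treated and 5 water, they were at -0.57 and 0.35 (adjusted p = 0.0807 for both by edgeR), where 72 of 536 microRNAs rose and 63 fell, and letter H held 1 treated library, too few for a value of its own.

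Exercise and corticosterone share the WT-water libraries as controls, so the likeness of the changes is not independent. Set against each other directly, WT-exercise and WT-corticosterone gave 0 calls among the 7 and 0% among 521 microRNAs by edgeR, the groups failed to overlap for 0.192% of microRNAs, and 0 of the 7 had an unadjusted p below 0.05. DESeq2 and limma-voom called 0 of the 7 as well. The differences between the treatments, with WT-exercise on top, lay between -0.13 (miR-128-1-5p) and 0.17 (miR-138-1-3p), with SEs of 0.22 to 0.36.

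**Figure D2:**
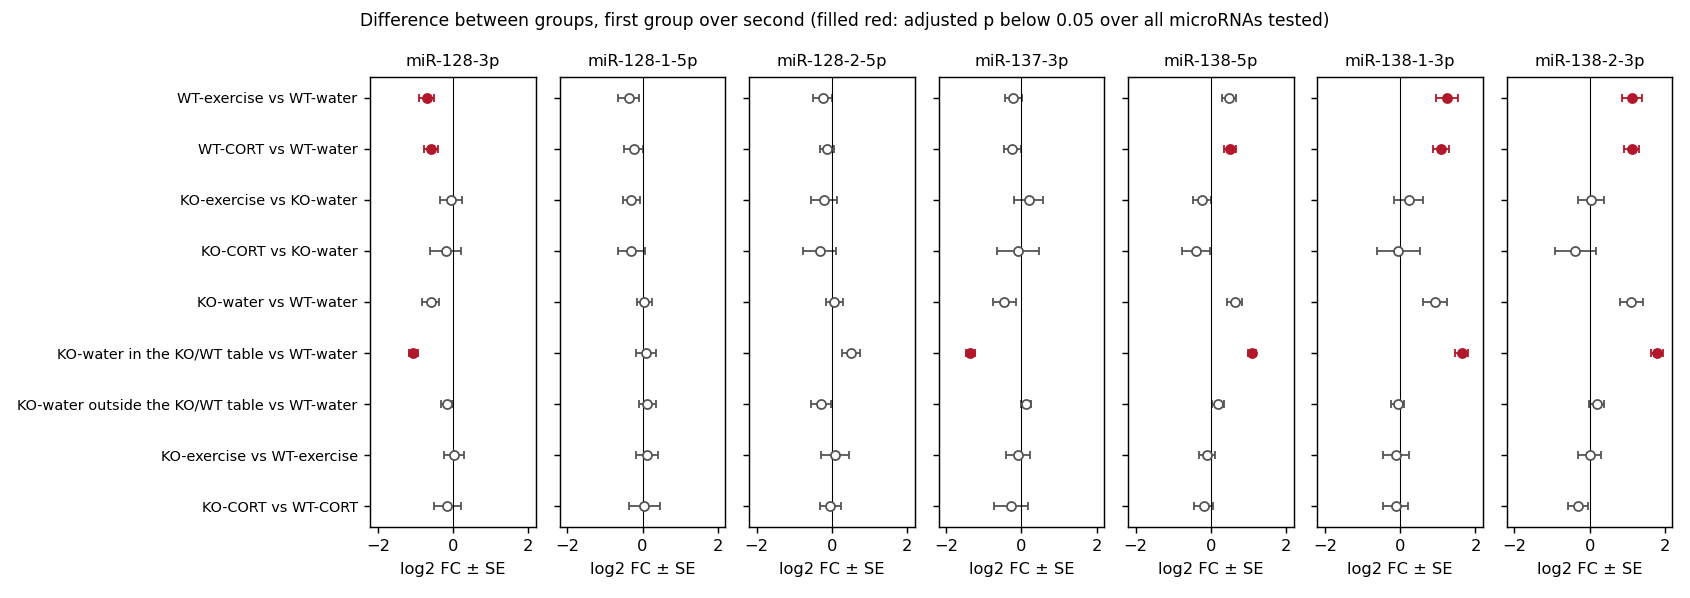
Log2 fold change ± SE of each arm in 9 comparisons, the first-named group over the second; filled red points passed an adjusted p of 0.05 over all microRNAs tested. Called points are 3 for WT-exercise and 4 for WT-corticosterone against WT-water and 5 for the KO-water libraries of the KO/WT table against WT-water, with none in the other comparisons shown.

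The comparison of genotypes under water asks whether loss of the transporter alone shifts the arms. With all 6 KO-water libraries no member was called by edgeR, as for all 545 microRNAs tested (0%), and the groups failed to overlap for 0.917% of them. An unadjusted p below 0.05 was found for 4 of 7 members and for 179 of the 545 microRNAs. DESeq2 called 3 members (the miR-138 arms) where it called 87 rises and 28 falls in all, and limma-voom called 0 members. The log2 differences, KO-water over WT-water, were 1.104 ± 0.305 for miR-138-2-3p (adjusted p = 0.0598), 0.63 ± 0.20 for miR-138-5p (0.0717), 0.93 ± 0.31 for miR-138-1-3p (0.0755) and -0.59 ± 0.23 for miR-128-3p (0.0962), all by edgeR. MiR-137-3p was at -0.46 ± 0.30 (0.285). The absence of calls depended on which KO-water libraries were included. Without KO-water replicate 5, edgeR called 4 members, among them miR-128-3p at -0.77 and miR-138-5p at 0.74. Without replicate 1 it called 4 and without replicate 2 it called 3. These replicates, 1, 2 and 5, are the KO-water libraries outside the KO/WT table. The whole table moved likewise, with 0 to 161 microRNAs called as single libraries were left out, the most without replicate 5.

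The 2 sets of KO-water libraries lay far apart. MiR-137-3p measured 2009, 2209 and 2264 CPM in the KO-water libraries of the KO/WT table, against 6221, 7252 and 7744 CPM in the other KO-water libraries. MiR-128-3p measured 15975, 23222 and 24597 CPM in those of the table, against 32803, 50439 and 52612 CPM in the others. MiR-138-5p measured 57572, 63126 and 63600 CPM in those of the table, against 28533, 36589 and 49417 CPM in the others. In each guide the libraries of the table lay wholly to 1 side of the others. Both miR-138 3p arms did so too, miR-138-2-3p at 416, 495 and 507 CPM in those of the table, against 153, 167 and 222 CPM in the others. That is 5 of 7 members, where 63.0% of 532 microRNAs did not overlap.

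Between the sets edgeR called the same 5 of 7, where 54.5% of all microRNAs were called (28.9% as rises and 25.6% as falls). The log2 fold changes, libraries of the table over the others, were -1.61 ± 0.15 for miR-137-3p (adjusted p = 6.87e-06), -1.004 ± 0.201 for miR-128-3p (0.00181), 0.80 ± 0.18 for miR-138-5p (0.00229), 1.59 ± 0.18 for miR-138-1-3p (2.61e-05) and 1.498 ± 0.172 for miR-138-2-3p (2.61e-05). MiR-137-3p thus moved most among the guides here, although it was not called in either wild-type treatment. MiR-128-2-5p was at 0.70 ± 0.29 (adjusted p = 0.0588) and was called without KO-water replicate 2 (0.78) or 4 (0.94). MiR-128-1-5p was at -0.16 ± 0.32.

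Against WT-water, the 3 KO-water libraries of the table gave 5 calls among the 7, where 60.9% of 581 microRNAs were called. MiR-137-3p was at -1.35 ± 0.12 (adjusted p = 7.43e-07 by edgeR) and miR-138-2-3p at 1.79 ± 0.16 (6.71e-07). The other 3 KO-water libraries gave 0 calls among the 7 and 0% of 587 microRNAs by edgeR, with 24 microRNAs at an unadjusted p below 0.05, none of them a member. Their log2 differences from WT-water lay between -0.29 ± 0.26 (miR-128-2-5p) and 0.19 ± 0.16 (miR-138-5p). All 6 libraries carry the same genotype and treatment label, and what else separates the sets cannot be told from the labels.

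Within KO mice, neither treatment gave a call in any of the 7 arms. In KO-exercise against KO-water edgeR called 0 of 7, where 4.02% of 523 microRNAs were called (3.06% as rises) and 6.12% did not overlap between the groups, and 0 of 7 had an unadjusted p below 0.05. DESeq2 and limma-voom called 0. MiR-128-3p measured 22252 to 42780 CPM (median 29230) in KO-exercise, against 15975 to 52612 CPM (median 28700.2) in KO-water, so that the exercised libraries sat inside the water range. MiR-138-5p measured 35978 to 46564 CPM in KO-exercise, against 28533 to 63600 CPM in KO-water, a log2 difference of -0.23 ± 0.24. The values depended on which KO-water libraries were the controls, for the members as for all microRNAs. With those of the KO/WT table, where 86 of 540 microRNAs rose and 91 fell, miR-137-3p was higher in KO-exercise by 1.15 (adjusted p = 0.00331 by edgeR), miR-138-5p was at -0.65 (0.0165) and miR-138-2-3p at -0.60 (0.0422). With the other KO-water libraries, where 57 of 544 rose and 61 fell, miR-138-1-3p was at 1.13 (0.0176) and miR-138-2-3p at 0.88 (0.0201), so miR-138-2-3p had opposite called signs under the 2 choices. The KO/WT table also holds KO-exercise replicate 4 by its label. It had 28052 CPM of miR-128-3p and 46389 CPM of miR-138-5p, and leaving it out gave no call among the 7.

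KO-corticosterone held 2 libraries. MiR-128-3p measured 27151 and 33384 CPM in KO-corticosterone, against 15975 to 52612 CPM in KO-water, and miR-138-5p 33832 and 48177 CPM, against 28533 to 63600 CPM. EdgeR called 0 of 7, where 0.521% of 576 microRNAs were called and 14.1% did not overlap between the groups, and 0 of 7 had an unadjusted p below 0.05. DESeq2 and limma-voom called 0. With 2 treated libraries, the SEs of the log2 differences ran between 0.35 and 0.57. With the KO-water libraries of the KO/WT table as the only controls, miR-137-3p was at 0.95 (adjusted p = 0.0232 by edgeR) and miR-138-2-3p at -0.90 (0.0134), where 56 of 543 microRNAs rose and 48 fell. With the other KO-water libraries edgeR called 0 of the 7, where 20 of 565 rose and 20 fell.

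KO and wild-type mice under the same treatment did not differ past the test in any of the 7 arms. KO-exercise against WT-exercise gave 0 calls of 7 and 0% of 517 microRNAs by edgeR (0.580% without overlap), and KO-corticosterone against WT-corticosterone 0 of 7 and 0% of 552 (2.54% without overlap). In both, 0 of 7 had an unadjusted p below 0.05, and DESeq2 and limma-voom called 0. The log2 differences between KO-exercise and WT-exercise lay between -0.11 and 0.11, with SEs of 0.22 to 0.36. Between KO-corticosterone and WT-corticosterone they lay between -0.31 and 0.05, with SEs of 0.25 to 0.46.

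Whether the response differed by genotype was tested as an interaction, the change in KO minus the change in WT. For exercise edgeR called 0 of 7 and 0% of 571 microRNAs, with 3 members, and 101 microRNAs in all, at an unadjusted p below 0.05. The 3 were miR-138-5p at -0.81 ± 0.30 (adjusted p = 0.19), miR-138-2-3p at -1.16 ± 0.47 (0.217) and miR-138-1-3p at -1.1005 ± 0.505 (0.242). For corticosterone it called 0 of 7 and 0% of 630, with 2 members, and 65 microRNAs in all, at an unadjusted p below 0.05. The 2 were miR-138-2-3p at -1.38 ± 0.49 and miR-138-5p at -0.80 ± 0.33 (adjusted p = 0.447 for both). DESeq2 and limma-voom called 0 of 7 in each. With only the KO-water libraries of the KO/WT table, 5 of 7 members were called in either interaction, for example miR-137-3p at 1.42 for exercise and 1.26 for corticosterone. Over all microRNAs the same fits called 42.3% of 596 for exercise, and 107 positive and 106 negative of 626 for corticosterone. With only the other KO-water libraries edgeR called 0 in all.

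Across libraries the 3 guides varied together. Libraries with little miR-128-3p tended to have little miR-137-3p and much miR-138-5p. KO-water replicate 2 was an exception, with 32803 CPM of miR-128-3p but 7744 CPM of miR-137-3p, the most among KO-water libraries. Over 31 libraries, log2 CPM of miR-128-3p and miR-137-3p had a Pearson r of 0.81, miR-128-3p and miR-138-5p -0.87, and miR-137-3p and miR-138-5p -0.84. For deviations from the group means the same values were 0.84, -0.87 and -0.84. The 25 libraries left without KO-water gave 0.79, -0.86 and -0.85 for the levels. These points share library preparation and scaling, and the libraries lean toward separate ends of the range, so the coefficients describe these libraries only.

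The balance of the most abundant pair shows this in single numbers. MiR-138-5p reads per miR-128-3p read numbered 0.657 to 3.19 (median 2.10) in WT-exercise, 0.650 to 2.57 (median 1.53) in WT-corticosterone and 0.497 to 0.828 (median 0.674) in WT-water. In KO mice the ratio was 0.841 to 2.09 in KO-exercise, 1.01 and 1.77 in KO-corticosterone, 2.48 to 3.95 in the KO-water set of the KO/WT table and 0.542 to 1.51 in the other set. MiR-138-5p outnumbered miR-128-3p in 17 of 31 libraries, among them none of 7 WT-water. A ratio between different microRNAs is of reads, not of molecules.

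**Figure D3:**
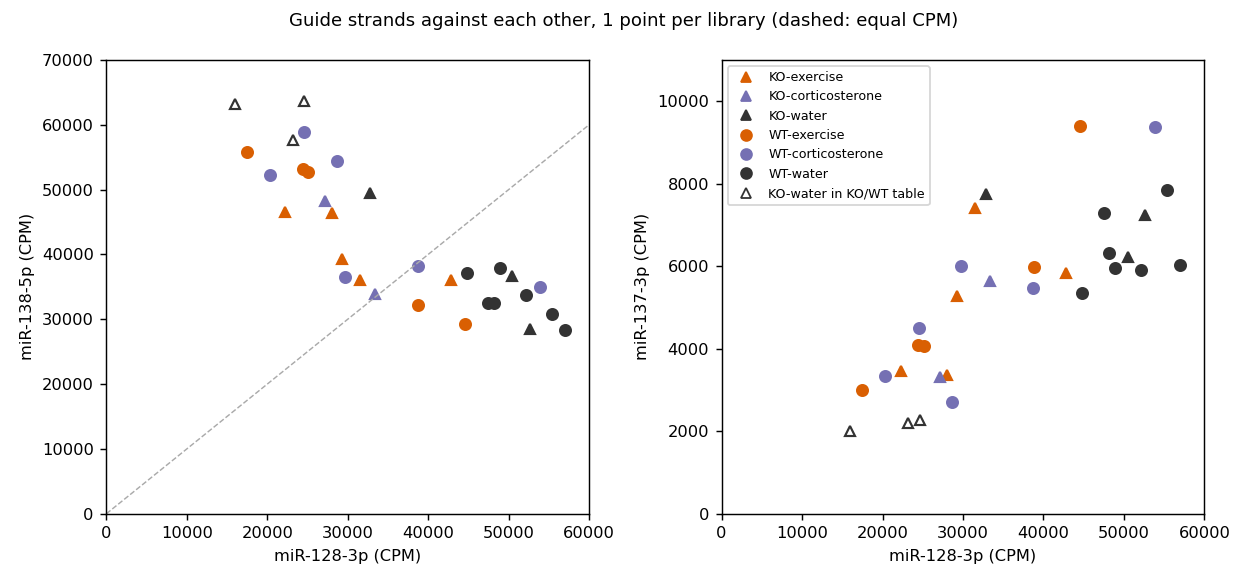
MiR-138-5p (left) and miR-137-3p (right) against miR-128-3p in CPM, 1 point per library; the dashed line in the left panel marks equal CPM. The 3 KO-water libraries of the deposited KO/WT table (open triangles) sit at the low end of miR-128-3p and the 7 WT-water libraries at the high end, below the line, with libraries of the other groups between and beside them.

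The rest of the microRNA profile moved with the guides. The first axis of within-group variation, computed over 457 microRNAs that are not members, held 49.2% of that variance. Library scores on this axis had an r of -0.92 with miR-128-3p, -0.92 with miR-137-3p and 0.89 with miR-138-5p over 31 libraries. With deviations from group means taken for the microRNA but not for the score, r was -0.76, -0.80 and 0.74. The scores kept the differences between groups, so these values do not measure the link within groups. KO-water libraries scored 10.4 to 15.8 where they were in the KO/WT table and -7.65 to -6.97 where they were not, and WT-water libraries scored -8.87 to -7.33. All KO-water libraries entered the axis as a single group, so the gap between their sets helped to define it and its separation of them is not independent. The scores were -10.1 to 12.7 (median 6.77) in WT-exercise and -8.71 to 8.39 (median 3.97) in WT-corticosterone. With the axis score as a covariate, chosen after seeing the data, 0 of 7 members were called by edgeR in WT-exercise or WT-corticosterone against WT-water. Calls over all microRNAs were 16 rises and 11 falls of 553 in WT-exercise and 28 and 14 of 547 in WT-corticosterone. There miR-128-3p was at -0.26 (adjusted p = 0.19) and -0.03 (0.951), and miR-138-5p at -0.04 and 0.02. Scores were centred over all libraries, so they also carry differences between the groups. Such a covariate can take up a change with treatment, and these fits cannot tell that change from the axis.

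Markers of other cell types varied beside these changes, and their part in them was not tested. Summed oligodendrocyte microRNAs (4 of 4 detected) came to 1999.7 to 6807 CPM in WT-exercise, 2241 to 6705 CPM in WT-corticosterone and 5973 to 7410 CPM in WT-water. The same sum was 1925 to 2788 CPM for KO-water within the KO/WT table, against 4956 to 6286 CPM for the other KO-water libraries. Summed microglia and immune markers (5 of 5 detected) ran the other way, at 2699 to 10036 CPM in WT-exercise, 2697 to 8432 CPM in WT-corticosterone and 2439 to 3528 CPM in WT-water. They came to 7088 to 7935 CPM for KO-water within that table, against 2475 to 3267 CPM in the others. Vessel markers (4 of 4) summed to 23372 to 26489 CPM there, against 11284 to 15704 CPM in the others, and red blood cell markers (3 of 3) to 503 to 635 CPM against 1195 to 1627 CPM. Wild-type vessel sums overlapped, at 14304 to 22563 CPM in WT-exercise, 13393 to 21295 CPM in WT-corticosterone and 12838 to 18486 CPM in WT-water. In wild types the red blood cell sum was 425 to 1812 CPM (median 576) in WT-exercise, 483 to 1155 CPM in WT-corticosterone and 1176 to 2421 CPM in WT-water. Markers within a list did not all move alike. In WT-exercise against WT-water, red blood cell markers miR-451a and miR-144-3p were at -1.03 ± 0.34 and 0.11 ± 0.36 on the log2 scale. Oligodendrocyte markers miR-338-3p and miR-338-5p were at -1.13 ± 0.31 and 0.28 ± 0.17. Red blood cell marker miR-486a-5p ran against miR-128-3p, with an r of -0.88 over deviations from group means. Choroid plexus markers (8 of 8) reached 6349 to 32754 CPM over all libraries. Their sum was 6349 to 10157 CPM in WT-exercise, 7447 to 32754 CPM in WT-corticosterone and 6689 to 25214 CPM in WT-water.

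Guide and passenger arms did not keep a fixed ratio, and for miR-128 and miR-138 the ratio pools a pair of hairpins. Reads of miR-128-3p per read of its 5p arms numbered 589 to 2189 (median 681) in WT-exercise, 592 to 1522 (median 826) in WT-corticosterone and 891 to 1679 (median 1403) in WT-water. In KO-water they numbered 433 to 562 in the libraries of the table, against 854 to 1702 in the others. Over 31 libraries miR-128-3p had an r of 0.29 with miR-128-1-5p and -0.09 with miR-128-2-5p. The 5p arms did not follow their guide across libraries, at 11 to 97 reads, where counting error alone is wide. MiR-137 has a single hairpin, and its ratio of miR-137-3p to miR-137-5p reads was higher in both wild-type treatments by the medians. It was 265 to 1459 (median 689) in WT-exercise, 463 to 1532 (median 1012) in WT-corticosterone and 413 to 814 (median 553) in WT-water. These ranges overlap and rest on 6 to 53 reads of miR-137-5p.

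For miR-138 the guide and both passengers moved the same way, with an r of 0.88 between miR-138-5p and miR-138-1-3p and 0.83 with miR-138-2-3p. Reads of miR-138-5p per read of its 3p arms numbered 55.6 to 90.4 (median 61.003) in WT-exercise, 61.9 to 80.6 (median 69.2) in WT-corticosterone and 84.7 to 117 (median 109) in WT-water. All 6 WT-corticosterone libraries lay below all 7 WT-water libraries in this ratio. In KO-water the ratio was 61.7 to 71.5 in the libraries of the table, against 99.8 to 125 in the others, with no overlap. How often the arm ratio of other hairpins failed to overlap was not computed. Levels of single microRNAs failed to overlap for 13.5% of 547 between WT-corticosterone and WT-water. Between the KO-water sets they did so for 63.0% of 532.

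The 3p arms that tell Mir138-1 from Mir138-2 changed together. Reads of miR-138-1-3p per read of miR-138-2-3p had medians of 1.05 in WT-exercise, 0.948 in WT-corticosterone and 0.916 in WT-water, and over 30 of the 31 libraries the ratio lay within 0.781 to 1.35. The exception was WT-water replicate 6, at 2.37, which had both the highest miR-138-1-3p and the lowest miR-138-2-3p of its group.

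**Figure D4:**
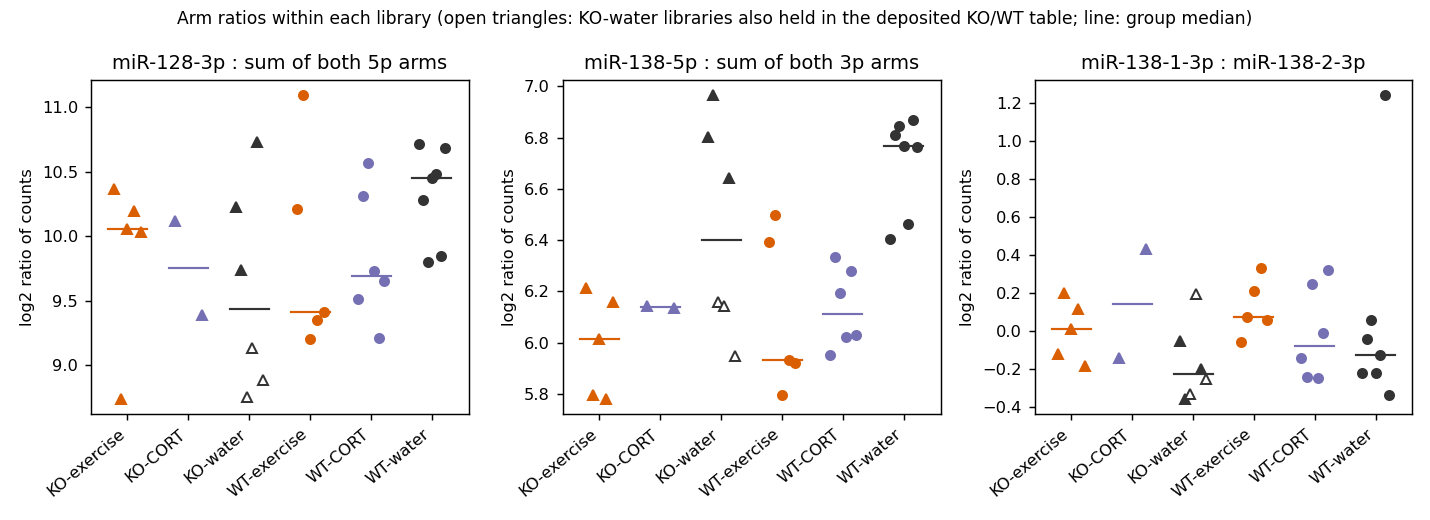
Log2 ratios of counts within each library: miR-128-3p to the sum of its 5p arms, miR-138-5p to the sum of its 3p arms, and miR-138-1-3p to miR-138-2-3p; lines are group medians and open triangles the KO-water libraries of the deposited KO/WT table. The median miR-138 guide-to-passenger ratio is 112 in the other KO-water libraries and 109 in WT-water, against at most 70.7 in any treated group or in KO-water within that table, and 1 WT-water library stands alone in the ratio of the 3p arms.

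By Pearson r of log2(CPM + 1) over 31 libraries, among 457 microRNAs with a mean of at least 10 CPM, the profile of miR-128-3p was most like those of miR-708-3p (0.93), miR-136-3p (0.93) and miR-338-3p (0.93), the last of which is also on the oligodendrocyte list. MiR-137-3p was most like miR-337-3p (0.96), miR-106b-5p (0.95) and miR-434-3p (0.94), and miR-138-5p most like miR-708-5p (0.93), miR-935 (0.93) and miR-666-5p (0.92). MiR-708-3p and miR-708-5p, the opposite arms of a single hairpin, stood first for miR-128-3p and for miR-138-5p, but by small margins. The r was 0.92845 against 0.927648 for miR-136-3p, and 0.926564 against 0.926505 for miR-935. By rank correlation (Spearman) miR-708-3p was at place 3 and miR-708-5p at place 7. Without the KO-water libraries they were at places 13 and 4 by Pearson r. Over deviations from group means, miR-434-3p (0.92), miR-495-3p (0.91) and miR-136-3p (0.90) were nearest to miR-128-3p. On that measure miR-337-3p (0.97), miR-106b-5p (0.96) and miR-544-3p (0.96) were nearest to miR-137-3p, and miR-409-5p (0.94), miR-708-5p (0.92) and miR-666-5p (0.92) to miR-138-5p.

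Of 30 other microRNAs reported to act at synapses or in plasticity, all were tested in every comparison. In WT-exercise 10 rose and 1 fell, with a median log2 fold change of 0.23, against 0.04 over all microRNAs, of which 19.9% rose and 12.7% fell. The largest changes were miR-182-5p at 2.34 ± 0.72 (adjusted p = 0.024 by edgeR) and miR-181a-5p at -0.52 ± 0.13 (0.0122). In WT-corticosterone 13 rose and 6 fell (median 0.19, against 0.06 over all, where 24.9% rose and 17.0% fell), led by miR-182-5p at 2.00 ± 0.57 and miR-22-3p at -1.13 ± 0.23. In KO-exercise 2 rose, where 3.06% of all microRNAs did, miR-26b-5p most at 0.84 ± 0.18 (adjusted p = 0.0164 by edgeR). Between the 2 sets of KO-water libraries 12 rose and 6 fell, where 28.9% and 25.6% of all did, miR-182-5p (2.42 ± 0.65) and miR-219a-5p (-3.72 ± 0.22) most, the second of which is also an oligodendrocyte marker.

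MiR-124-3p, a microRNA typical of neurons, was not called by edgeR in any comparison and was at 0.04 ± 0.15 in WT-exercise and 0.11 ± 0.15 in WT-corticosterone. Of the microRNAs whose seed overlaps that of miR-128-3p, miR-27a-3p and miR-27b-3p were set beside it. MiR-27a-3p averaged 1126 ± 119 CPM in WT-exercise (n = 5), 1175 ± 138 CPM in WT-corticosterone (n = 6) and 941 ± 80.5 CPM in WT-water (SD, n = 7). It rose by 0.37 ± 0.11 on the log2 scale in WT-corticosterone (adjusted p = 0.0171 by edgeR) and was at 0.32 ± 0.12 in WT-exercise (0.0566). MiR-27b-3p was at 0.18 ± 0.11 in WT-corticosterone and 0.16 ± 0.13 in WT-exercise and was not called in either. Between the sets of KO-water libraries miR-27b-3p, at 1418 ± 291 CPM in those of the KO/WT table and 2169 ± 340 CPM in the others (SD, n = 3 each), fell by 0.53 on the log2 scale (adjusted p = 0.0231 by edgeR).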

How the data were processed

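Small RNA of 31 right hippocampi was sequenced on an Ion Torrent S5, per the labels' protocols. The authors deposited 5 tables of read counts per mature microRNA (1966 rows, whole numbers, not normalized). Cutadapt 2.3, BWA, Subread, featureCounts and limma 3.54.1 on GRCm38 are named, per the submitters' processing notes, without role or order. No source used here states how reads that match several hairpins were handled. Libraries held in several tables had identical counts, 0 other sample columns were present, and 391 microRNAs had no count in any library. Totals were 1011285 to 4052174 counts per library. No pair of libraries within a group agreed within sampling noise (lowest chi-square per degree of freedom 16.1).

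Each comparison used the libraries of its own groups in edgeR 4.0.16 (R 4.3.3): filterByExpr, TMM scaling, robust quasi-likelihood F test, two-sided, Benjamini-Hochberg adjustment over all microRNAs tested, threshold 0.05. Interactions used 4-group fits. SEs of log2 fold changes come from the F statistic. CPM are given after TMM scaling of all 31 libraries. Arm ratios are of counts plus 0.5. Alternatives were DESeq2 1.42.0 and its size factors, limma-voom (limma 3.58.1), no scaling, other filters, a joint fit, the replicate number, the code letter G or H (of unstated meaning), each set of KO-water libraries and each library left out. A covariate from the axis of within-group variation was added after seeing the data. The edgeR fit was run on simulated counts for WT-exercise against WT-water alone, with each microRNA drawn independently. Those counts lacked the shared within-group variation seen here, so they do not measure the error rate on these data. Likeness named the 3 microRNAs with the highest r per guide, and of the synapse-linked list the text names the largest called change in each direction and miR-124-3p. The members, lists and tests were chosen with earlier results of these data known. Replicates are named biological by the labels, with no source stating separate animals, so p-values measure the spread between these samples.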

Additional observations from a re-analysis of the deposited data

Results flagged for a closer look

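In 75 sets of 5 to 7 libraries (7 arms and 8 ratios in 5 groups), 2 had a library far from the rest by Dixon's gap test, and chance flags about 1 in 20. In WT-water, replicate 6 had 2.37 reads of miR-138-1-3p per read of miR-138-2-3p, and the next library 1.04. In KO-exercise, replicate 2 had 428 reads of miR-128-3p per read of its 5p arms, and the next library 1047. That library was the shallowest, with 1011285 counts, and its ratio rests on 13 reads of miR-128-1-5p and 44 of miR-128-2-5p. Their causes were not tested.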

How the results depend on the processing

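Over the member fold changes under all alternatives (1876 in all), 1800 stayed on their side of the threshold with no called sign turned, 23 lost a call, 49 gained one and 4 turned. Of the 1800, 193 changed sign while uncalled in both fits. The number of members called moved as follows, with the rises and falls over all microRNAs in brackets, and the cause was not tested. In WT-exercise (3 called) it was 0 with only code letter G [7 and 3] and 0 with the library score on the within-group axis in the model [16 and 11], and 2 to 5 with single libraries left out. In WT-corticosterone (4) it was 2 in the joint fit [98 and 73], 2 with only letter G [72 and 63], 0 with the axis [28 and 14] and 4 to 5 without single libraries. In KO-exercise (0) it was 3 with the KO-water libraries inside the KO/WT table [86 and 91], 2 with those outside [57 and 61] and 1 with the axis [73 and 47]. In KO-corticosterone (0) it was 2 with those inside [56 and 48]. In KO-water against WT-water (0) it was 3 by DESeq2 [87 and 28], 1 with its size factors [25 and 1], 1 with no filter [18 and 5], 2 at a mean of at least 10 CPM [39 and 3], 2 in the joint fit [54 and 15], 5 with KO-water inside the table [192 and 162], and 0 to 4 without single libraries. Between the KO-water sets (5) it was 0 with the axis [0 and 0] and 5 to 6 without single libraries. The interactions (0 each) gave 5 each with KO-water inside the table [42.3% of all microRNAs for exercise, 107 and 106 for corticosterone].

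The 4 turned values were miR-138-2-3p in KO-exercise (-0.60) and miR-137-3p in KO-corticosterone (0.95) against KO-water inside the table, and, between the KO-water sets with the axis, miR-128-3p (0.030, SE 1.40) and miR-138-1-3p (-0.020, SE 1.08), where the axis and the sets nearly coincide. Without scaling factors the median of all microRNAs was -0.22 in KO-water against WT-water, against -0.08 with them.

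Same-numbered libraries were not alike throughout any comparison, since at least 1 such pair correlated negatively in each. With 2 to 6 pairs per comparison, whether the numbers mark a pairing cannot be decided. The ranges were -0.10 to 0.20 for WT-exercise and -0.28 to 0.16 for WT-corticosterone with WT-water, -0.42 to 0.65 for KO-exercise with KO-water, -0.67 to 0.71 for KO-exercise with WT-exercise and -0.53 to 0.70 for WT-exercise with WT-corticosterone. With the replicate block, 0 members were called in WT-exercise (miR-128-3p at -0.75, adjusted p = 0.0541 by edgeR), where all microRNAs gave 27 rises and 11 falls, and 3 in WT-corticosterone, where they gave 99 and 75. Subsets by letter H and the block between the KO-water sets could not be fitted where groups kept too few libraries. Depth limits the 5p arms of miR-128, at 11 to 97 reads.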
